A study of Oryctolagus cuniculus with 27 samples.

Results

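TREM2 and 9 genes linked to lipid-loaded macrophages, or foam cells, were followed in rabbit aortic valve, ascending aorta and heart muscle: TREM2, TYROBP, GPNMB, ATP6V0D2, FABP5, LGALS3, LPL, PLIN2, LIPA and SOAT1. They were chosen by name, with earlier results of these data already known. All 10 were listed among the 31346 genes of each full table of raw counts, so none was dropped, and all 10 passed the filter on low counts in the valve. In aorta and myocardium 9 of 10 passed, ATP6V0D2 being too low there.

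The 27 RNA-seq libraries come from 21 male New Zealand rabbits. The controls ate normal chow, and the others ate food enriched in cholesterol (1%) and vitamin D2, as ergocalciferol at 3500 IU per kg per day, a combination used to model early aortic valve stenosis. Each valve library holds 1 cusp, freed of most but not all fat. There were 4 valve libraries from controls and 4 each after 2, 4 and 7 weeks of diet, 3 control and 2 diet libraries of ascending aorta, and 3 control and 3 diet libraries of left ventricular myocardium. All animals are labelled wild type, and no age is given. When the control valves were taken is uncertain, since the study text speaks of a pool of 2- and 4-week controls while 3 library titles name 7 weeks and 1 names 2 weeks. No diet duration is given for aorta or myocardium, but the 3 diet myocardium libraries carry the animal numbers of 7-week valve animals, and diet aorta replicate 1 that of 2-week valve replicate 1. The animal of the other diet aorta gave no valve library.

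TREM2 is a surface receptor of macrophages that binds lipids and lipoproteins, and it signals through the adaptor TYROBP, also called DAP12, and the kinase SYK. In atherosclerotic plaques, TREM2 marks macrophages that have taken up lipoprotein cholesterol. Such cells degrade cholesterol esters in the lysosome with the acid lipase LIPA, re-esterify the cholesterol with SOAT1 and store it in droplets coated by PLIN2. GPNMB is a lysosomal and surface glycoprotein, ATP6V0D2 a subunit of the proton pump that acidifies lysosomes, FABP5 a fatty acid carrier, LPL the lipase that frees fatty acids from lipoproteins, and LGALS3 galectin-3, a sugar-binding protein abundant in macrophages. LPL, PLIN2, LIPA, SOAT1 and LGALS3 are also made by many other cells.

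Sequencing depth, as total counts, was 8.458 to 19.999 M in the valve, 11.510 to 16.107 M in the aorta and 13.954 to 17.322 M in the myocardium libraries. Levels are given in CPM, counts scaled to the library total, and 1 count was worth at most 0.118 CPM in any valve library. Heart muscle transcripts were present in all valve groups: summed over 12 cardiomyocyte genes they took 8154 to 39930 CPM in controls, 1194 to 6025 at 2 weeks, 2323 to 25624 at 4 weeks and 9120 to 41032 at 7 weeks. The 4 atrial muscle genes summed to 4.10 to 13.7 CPM in controls and 0.587 to 539 CPM at 2 weeks, against 241 to 7584 CPM at 4 weeks and 444 to 4812 CPM at 7 weeks, so the later diet groups also stood apart by atrial muscle RNA. The diet libraries of both other tissues did too: the atrial sum was 0.782 to 1.99 CPM in control and 103 to 112 CPM in diet aortas, and 1.88 to 3.22 CPM in control and 12.6 to 128 CPM in diet myocardium. In bulk tissue, fewer cells of a type and less RNA per cell cannot be told apart. Fold changes below are log2, diet minus control unless stated, with the standard error (SE) and a Benjamini-Hochberg adjusted p over all genes tested from the quasi-likelihood F test of edgeR, and genes with an adjusted p under 0.05 are said to have risen or fallen.

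In the valve the receptor and its adaptor rose late. None of the 10 genes changed after 2 weeks, where 0.025% of all 15973 genes tested changed in either direction. At 4 weeks 4 of 10 rose, TREM2, TYROBP, GPNMB and ATP6V0D2, and 0 fell, where 1.94% of all genes rose and 0.0563% fell. At 7 weeks 6 of 10 rose, the same 4 with FABP5 and LGALS3, and 0 fell, where 5.2% of all genes rose and 2.6% fell. The median change of the 10 genes was 0.06 at 2 weeks, 1.13 at 4 weeks and 1.43 at 7 weeks, while the median over all genes was 0.02, -0.03 and -0.01. Libraries on diet lay above every control library for 4 of 10 genes at 4 weeks and 5 of 10 at 7 weeks, which held for 6.29% and 8.48% of all genes. Of all genes, 8.23% had every 4-week library, and 13% every 7-week library, above every 2-week library.

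**Figure D1:**
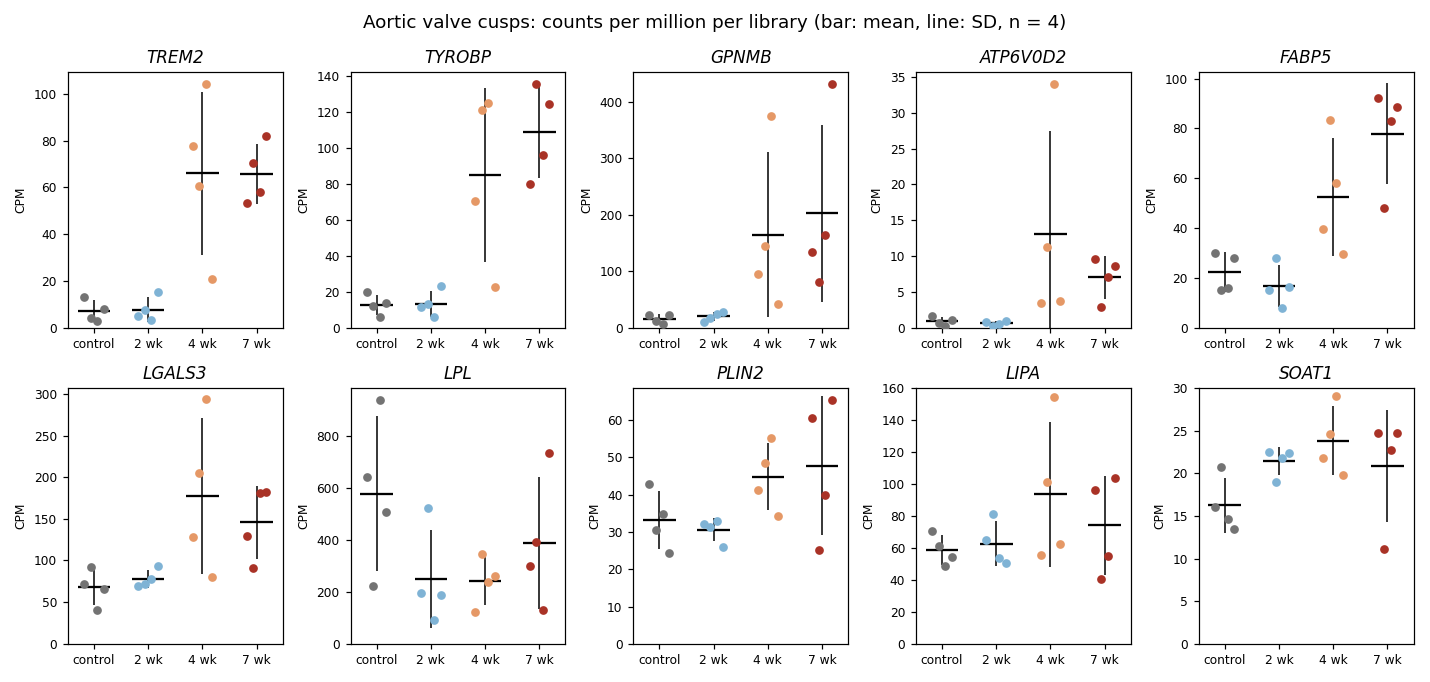
Level of each gene in CPM (vertical axis, linear, from 0) in the 16 valve libraries by group; each point is 1 library, the bar the mean and the line the SD (n = 4), cut off at 0. TREM2, TYROBP, GPNMB and ATP6V0D2 are higher at 4 and 7 weeks than in any control, 4-week replicate 4 being the lowest 4-week library for TREM2, TYROBP, GPNMB and FABP5, whereas the groups overlap for LPL, PLIN2, LIPA and SOAT1.

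TREM2 read 13.2, 3.97, 2.74 and 7.80 CPM in the 4 control valves and 4.87, 7.50, 3.20 and 15.2 CPM after 2 weeks. At 4 weeks it read 77.9, 60.65, 104 and 20.9 CPM, and at 7 weeks 53.3, 70.5, 58.1 and 81.8 CPM. All 8 later libraries were above all 8 earlier ones, and the nearest was 4-week replicate 4. The change was 0.12 ± 0.53 (adjusted p = 0.944) at 2 weeks, 3.08 ± 0.55 (8.48-fold, adjusted p = 0.0192) at 4 weeks and 3.27 ± 0.56 (9.68-fold, adjusted p = 0.00633) at 7 weeks. By group mean, TREM2 was ordered from 66.0 ± 34.97 CPM (SD, n = 4) in 4-week and 65.9 ± 12.8 (n = 4) in 7-week valve, through 7.68 ± 5.29 (n = 4) in 2-week and 6.92 ± 4.69 (n = 4) in control valve, 3.52 ± 1.17 (n = 3) in control aorta, 2.73 ± 1.03 (n = 3) in diet myocardium and 2.71 ± 0.415 (n = 2) in diet aorta, to 1.02 ± 0.825 (n = 3) in control myocardium. In that order, the step from 4- and 7-week valve down to 2-week valve exceeded the spread, and from there to diet aorta neighbouring groups overlapped; control myocardium lay below diet aorta without overlap.

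TYROBP, the signalling adaptor, moved in the same groups. Its 4 control valves read 19.5, 12.03, 5.70 and 13.4 CPM, and the 2-week valves 11.4, 13.1, 5.67 and 23.001 CPM. At 4 weeks the values were 70.4, 121, 125 and 22.8 CPM, and at 7 weeks 79.7, 136, 95.6 and 124 CPM. The lowest 4-week library, replicate 4, was above every control but at the level of the highest 2-week library, and the 7-week libraries were above both. TYROBP rose by 2.56 ± 0.50 (5.91-fold, adjusted p = 0.0197) at 4 weeks and 3.15 ± 0.51 (8.87-fold, adjusted p = 0.00633) at 7 weeks.

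Of 24 listed genes that signal beside TREM2, bind it or cut it from the surface, 18 were tested, and 5 rose at 4 weeks and 6 at 7 weeks with none falling. Their median change was 0.72 and 1.17. HCST, or DAP10, a second adaptor that TREM2 can use, rose by 3.22 ± 0.72 at 4 weeks and 4.27 ± 0.74 at 7 weeks. SYK, the kinase recruited by TYROBP, rose by 2.34 ± 0.45 and 2.17 ± 0.45, and PTPN6, a phosphatase that damps such signals in blood cells, by 2.16 ± 0.38 and 2.10 ± 0.38. Adjusted p for these 3 genes was 0.0192 to 0.0341 at 4 weeks and 0.00633 to 0.0117 at 7 weeks. The sheddases ADAM10 and ADAM17, which cut TREM2 from the cell surface, read -0.07 ± 0.21 and 0.23 ± 0.16 at 7 weeks and did not pass, and APOE, a TREM2 ligand, read 1.24 ± 0.39 (adjusted p = 0.0639); these 3 were chosen for naming after their values were seen.

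GPNMB, the lysosomal glycoprotein, read 23.004, 11.1, 6.59 and 22.2 CPM in controls and 10.3, 16.9, 24.7 and 28.3 CPM at 2 weeks. It read 95.3, 145, 374 and 42.5 CPM at 4 weeks and 133, 80.9, 164 and 432 CPM at 7 weeks. Both later groups lay above all earlier libraries, and each held 1 library more than 2 times as high as the next, replicate 3 at 4 weeks and replicate 4 at 7 weeks. GPNMB rose by 3.18 ± 0.65 (9.05-fold, adjusted p = 0.0225) at 4 weeks and 3.65 ± 0.66 (12.6-fold, adjusted p = 0.00715) at 7 weeks. Melanocytes also make GPNMB. Of 8 listed Schwann cell and melanocyte genes, 5 were tested and 1 rose, MLANA, by 3.07 at 4 weeks and 3.64 at 7 weeks, from 0.13 to 0.67 CPM in controls to 0.68 to 10.7 CPM and 4.02 to 8.54 CPM. PMEL, the defining melanosome protein, was at 0.73 CPM or less in every valve library, and the whole list summed to 141 to 443 CPM in controls, 119 to 263 CPM at 4 weeks and 69.0 to 338 CPM at 7 weeks. The part of these cells in the GPNMB change was not tested.

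ATP6V0D2 was the lowest-counted of the 10 genes. It read 1.57, 0.64, 0.22 and 1.06 CPM in controls and 0.77, 0.27, 0.46 and 0.85 CPM at 2 weeks. At 4 weeks it read 3.40, 11.2, 34.004 and 3.74 CPM, and at 7 weeks 9.59, 2.84, 7.09 and 8.66 CPM. Again the later libraries lay above all earlier ones, with 4-week replicate 3 far above the rest. The rise was 3.69 ± 0.71 (12.9-fold, adjusted p = 0.0196) at 4 weeks and 2.96 ± 0.70 (7.77-fold, adjusted p = 0.0207) at 7 weeks. Of 19 other subunits of the proton pump tested, 0 changed at 4 weeks, where ATP6V1B2 was nearest at 0.44 ± 0.15 (adjusted p = 0.181), and 2 rose at 7 weeks, ATP6V1F by 0.84 ± 0.24 (adjusted p = 0.0446) and ATP6V1B2 by 0.54 ± 0.16 (adjusted p = 0.0449), and the medians were 0.22 and 0.14. None of the 4 MiT/TFE transcription factors, which control lysosomal genes, passed; the nearest was TFEC, at 1.44 ± 0.38 (adjusted p = 0.0626) at 4 weeks and 1.12 ± 0.38 (adjusted p = 0.0796) at 7 weeks. ATP6V0D2 is also an osteoclast gene, and of 7 osteoclast genes tested 1 rose at each of these times. It was the protease MMP9, by 4.94 ± 0.95 (adjusted p = 0.0196) and 3.77 ± 0.92 (adjusted p = 0.0241). MMP9 is also in the list of lipid-associated macrophage genes given below. CTSK, the osteoclast cathepsin that fibroblasts also make, was at 340 to 634 CPM in controls and 633 to 1443 CPM at 4 weeks and 415 to 925 CPM at 7 weeks, without passing.

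FABP5, the fatty acid carrier, read 30.1, 14.98, 15.7 and 28.1 CPM in controls, 14.9, 27.99, 7.88 and 16.4 CPM at 2 weeks, 39.5, 83.3, 58.0 and 29.5 CPM at 4 weeks and 92.1, 47.9, 83.0 and 88.4 CPM at 7 weeks. At 4 weeks replicate 4 lay within the control range, and at 7 weeks all 4 libraries were above it. The change was 1.05 ± 0.34 (adjusted p = 0.139) at 4 weeks and a rise of 1.76 ± 0.34 (3.38-fold, adjusted p = 0.00961) at 7 weeks. FABP5 had values that were not whole numbers in 96.3% of the 27 libraries, that is reads shared out with other genes, so its level is uncertain. None of 3 other fatty acid binding protein genes tested passed; FABP7, the nearest, was at -0.82 ± 0.48 at 4 weeks and -0.28 ± 0.48 at 7 weeks.

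LGALS3, galectin-3, was well counted in control valves, at 71.8, 92.3, 40.8 and 65.7 CPM, and read 69.7, 71.3, 77.8 and 93.7 CPM at 2 weeks. It read 128, 205, 294 and 80.6 CPM at 4 weeks and 130, 91.0, 181 and 182 CPM at 7 weeks. One library of each later group, 4-week replicate 4 and 7-week replicate 2, lay within the control range. The change was 1.21 ± 0.31 (adjusted p = 0.0539) at 4 weeks, short of the threshold, and a rise of 1.09 ± 0.31 (2.13-fold, adjusted p = 0.0404) at 7 weeks. None of 6 other galectins tested passed, LGALS9 being nearest at 2.38 ± 0.68 (adjusted p = 0.0900) and 2.28 ± 0.68 (adjusted p = 0.0514).

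LPL, the lipoprotein lipase, was the only one of the 10 genes with lower fitted means on diet at both later times, and it did not pass at any. Controls read 644, 221, 943 and 508 CPM and 2-week valves 195, 524, 90.1 and 190 CPM. Valves read 121, 347, 239 and 261 CPM at 4 weeks and 300, 394, 132 and 736 CPM at 7 weeks. The groups overlapped widely. The differences were -1.32 ± 0.57 (adjusted p = 0.257), -1.46 ± 0.57 (adjusted p = 0.257) and -0.57 ± 0.56 (adjusted p = 0.547), and the 95% interval at 7 weeks ran from -1.68 to 0.53. Heart muscle and fat also make LPL. Myocardium held 1247 to 2854 CPM of LPL, and the cardiomyocyte sum was lowest at 2 weeks. With a cardiomyocyte score as covariate LPL differed by 0.04 ± 0.66, -0.61 ± 0.56 and -0.55 ± 0.46 after 2, 4 and 7 weeks. The cardiomyocyte sum was 8154 to 39930 CPM in controls and 1194 to 6025 CPM at 2 weeks, without overlap. Score and diet therefore cannot be fully told apart at 2 weeks in this fit. The 5 adipocyte genes summed to 241 to 694 CPM in controls, 147 to 825 at 2 weeks, 255 to 629 at 4 weeks and 343 to 746 at 7 weeks; the defining ADIPOQ ran from 49.02 to 147 CPM in controls and 44.7 to 183 CPM at 7 weeks. Of 4 adipocyte genes tested 0 changed at 4 weeks, and at 7 weeks 1 fell, LEP, the hormone leptin. LEP ran from 4.29 to 17.9 CPM in controls, 2.62 to 6.13 at 4 weeks (-1.71 ± 0.61, adjusted p = 0.199) and 0.355 to 2.65 CPM at 7 weeks (-3.12 ± 0.67, 8.69-fold lower, adjusted p = 0.0135). The part of fat in the LPL values was not tested. Of 7 tested genes that process or anchor LPL or take up its products, 0 changed at either time, LMF1, a factor that helps LPL fold, reading 0.27 ± 0.17 (adjusted p = 0.575) at 4 weeks and GPIHBP1, its endothelial anchor, reading 1.31 ± 0.50 (adjusted p = 0.113) at 7 weeks.

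The 3 genes of the cholesterol ester and droplet cycle did not pass at any time. PLIN2, the droplet coat, read 43.02, 30.7, 34.9 and 24.3 CPM in controls, 32.1, 31.3, 33.1 and 26.1 at 2 weeks, 41.2, 48.5, 55.2 and 34.4 at 4 weeks and 60.6, 25.2, 39.9 and 65.5 at 7 weeks. The highest libraries were on diet, but each group overlapped the controls. The differences were 0.26 ± 0.22 at 4 weeks and 0.48 ± 0.22 at 7 weeks (95% interval 0.05 to 0.91, adjusted p = 0.178).

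LIPA, the lysosomal acid lipase, read 70.4, 61.05, 48.9 and 54.4 CPM in controls and 64.9, 81.5, 53.5 and 50.5 CPM at 2 weeks. It read 55.8, 102, 154 and 62.4 CPM at 4 weeks and 96.4, 40.8, 55.2 and 104 CPM at 7 weeks. At both later times 2 libraries were above all controls and the others within or below their range, and the differences were 0.49 ± 0.28 (adjusted p = 0.511) and 0.30 ± 0.28 (adjusted p = 0.529, 95% interval -0.25 to 0.84).

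SOAT1, the enzyme that re-esterifies cholesterol, read 16.1, 20.8, 14.7 and 13.5 CPM in controls and 22.5, 19.0, 21.8 and 22.4 CPM at 2 weeks. It read 21.8, 24.6, 29.1 and 19.8 CPM at 4 weeks and 24.8, 11.2, 22.7 and 24.8 CPM at 7 weeks. Differences were small at each time, 0.40 ± 0.17, 0.39 ± 0.17 and 0.32 ± 0.17, with adjusted p of 0.260, 0.333 and 0.253; the 95% interval at 7 weeks ran from -0.02 to 0.66. SOAT1 was not a whole number in any of the 27 libraries, so some of its reads were shared with other genes and its level is uncertain.

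Around these 3 genes, few genes of the droplet and cholesterol ester lists changed, while more did in the list of lipid-associated macrophages. Of all genes, 1.94% rose at 4 weeks and 5.2% at 7 weeks. Of 13 tested genes of lipid droplets and lipolysis, 0 changed at 4 weeks, DGAT2, which makes triglyceride, being nearest at -1.21 ± 0.45 (adjusted p = 0.220), and 1 rose at 7 weeks, HILPDA, a lipase inhibitor on droplets, by 0.63 ± 0.18 (adjusted p = 0.0468), with list medians of -0.25 and -0.20. Of 16 tested genes of cholesterol ester handling and efflux, 1 rose at 4 weeks and 2 at 7 weeks. ABCG1, which exports cholesterol, rose by 1.81 ± 0.43 (adjusted p = 0.0432) and 2.34 ± 0.44 (adjusted p = 0.00785). STARD3, a cholesterol-binding protein of late endosomes, rose by 0.51 ± 0.14 (adjusted p = 0.0384) at 7 weeks. A further list of 21 tested genes named for lipid-associated macrophages had 5 higher at 4 weeks and 9 at 7 weeks, with 0 lower and medians of 0.78 and 0.93. The lists are not separate: ABCG1 and ABCA1 are also in the cholesterol ester list, so ABCG1 counts in both. CD68 is also a general macrophage marker here, and APOE is also in the list around TREM2. Its largest rise at both times was in MMP9, also counted above as an osteoclast gene, by 4.94 ± 0.95 and 3.77 ± 0.92. MSR1, the class A scavenger receptor that takes up modified lipoproteins, was higher by 3.37 ± 0.58 (adjusted p = 0.0192) and 2.87 ± 0.57 (adjusted p = 0.0101). CD84, a leukocyte adhesion receptor, was higher by 2.45 ± 0.47 (adjusted p = 0.0196) and 2.65 ± 0.47 (adjusted p = 0.00686).

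**Figure D2:**
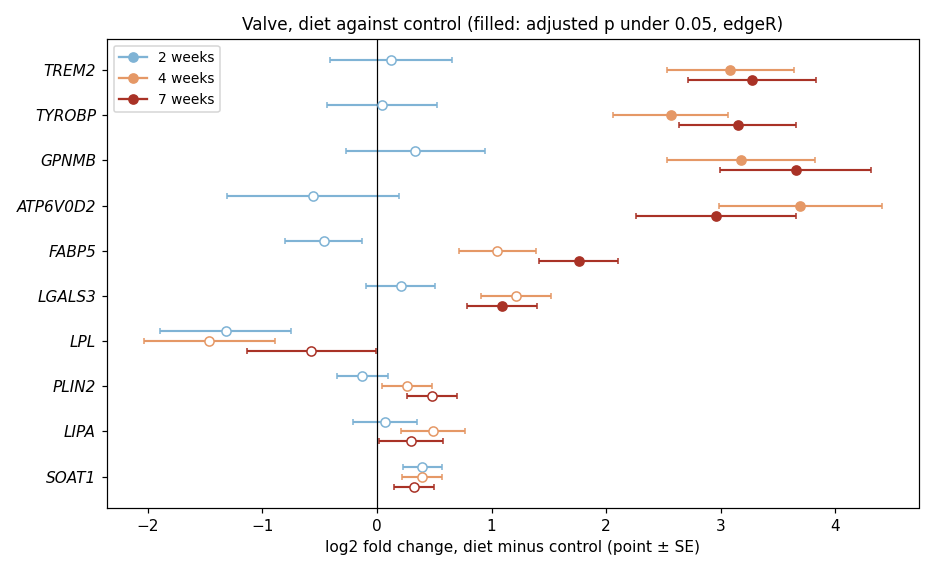
log2 fold change of each gene in valve on diet against control (horizontal axis) after 2, 4 and 7 weeks; points are estimates, lines ± SE, and filled points have an adjusted p under 0.05 in edgeR. TREM2, TYROBP, GPNMB and ATP6V0D2 lie between 2.56 and 3.69 at 4 and 7 weeks and between -0.56 and 0.34 at 2 weeks, and LPL lies below 0 throughout.

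How firmly the 4-week rises stood depended on single libraries. TREM2, TYROBP, GPNMB and ATP6V0D2 all failed the threshold when 4-week replicate 3, or any of control replicates 2, 3 and 4, was left out, where TREM2 read 2.81, 2.87, 2.83 and 3.19 with adjusted p from 0.0649 to 0.0945, GPNMB 2.43, 3.02, 2.93 and 3.45, ATP6V0D2 2.63, 3.53, 3.39 and 3.84, and TYROBP 2.34, 2.50, 2.33 and 2.63. Without 4-week replicate 2 TREM2 still passed, and TYROBP read 2.36 (adjusted p = 0.0582), GPNMB 3.24 and ATP6V0D2 3.76 (adjusted p = 0.0520 each). In a fit of the 4-week and control libraries alone the same 4 genes had adjusted p of 0.105 to 0.115, and nearly all calls over all genes were lost as well. Leaving out 1 library gave 0 to 791 calls over all genes at 4 weeks, where the main fit gave 319. At 7 weeks TREM2, TYROBP, GPNMB and FABP5 passed whichever of the libraries compared was left out, GPNMB with a range from 2.96 without 7-week replicate 4 to 3.92. ATP6V0D2 failed without control replicate 2 (2.80, adjusted p = 0.0683), control replicate 3 (2.65, 0.0656) or 7-week replicate 4 (2.82, 0.0540). LGALS3 failed without any 1 control (0.93 to 1.23, adjusted p = 0.0611 to 0.118) or without 7-week replicate 3 (1.00, 0.0859) or 4 (0.96, 0.114). LGALS3 passed at 4 weeks without 4-week replicate 4 (1.44, adjusted p = 0.00650).

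Between diet durations, the step lay between 2 and 4 weeks. From 2 to 4 weeks 5 of 10 genes rose, where 3.14% of all genes did: ATP6V0D2 by 4.25 ± 0.73, TREM2 by 2.96 ± 0.55, GPNMB by 2.84 ± 0.64, TYROBP by 2.52 ± 0.50 and FABP5 by 1.52 ± 0.34, with adjusted p of 0.00886 to 0.0216. From 4 to 7 weeks 0 of 10 changed, where 0.1% of all genes did in either direction; TREM2 differed by 0.19 ± 0.50 (95% interval -0.79 to 1.17), GPNMB by 0.47 ± 0.59 and FABP5 by 0.71 ± 0.33 (adjusted p = 0.414). From 2 to 7 weeks 6 of 10 rose, where 14.5% of all genes did, LGALS3 the least, by 0.89 ± 0.30 (adjusted p = 0.0419). These 3 comparisons share libraries with each other and with those against control. Residual 18S ribosomal RNA (RN18S) moved with the step from 2 to 4 weeks: it took 1.36% to 1.97% of counts in 2-week and 0.282% to 0.516% in 4-week valves, against 0.476% to 2.06% in controls and 0.510% to 2.20% at 7 weeks, and its part was not tested. From 2 to 4 weeks GPNMB failed without 4-week replicate 3 (2.09, adjusted p = 0.0652) or 2-week replicate 1 (2.64, 0.0815) or 3 (3.03, 0.0591). FABP5 failed there without 4-week replicate 2 (1.23, adjusted p = 0.0781) or 3 (1.49, 0.0516) and without 2-week replicate 1 (1.49, 0.0740), 3 (1.32, 0.0690) or 4 (1.498, 0.0534). LGALS3 passed there without 4-week replicate 4 (1.23, adjusted p = 0.0117), and from 2 to 7 weeks it failed without 7-week replicate 3 or 4 or any 2-week replicate (0.76 to 0.96, adjusted p = 0.0535 to 0.113). PLIN2, at 0.61 ± 0.22 from 2 to 7 weeks (adjusted p = 0.0515), passed without 7-week replicate 2 (0.75, 0.0255) or 3 (0.70, 0.0441).

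General macrophage markers rose in the same valves. Of 14 tested, 11 rose at 4 weeks and 12 at 7 weeks, with 0 lower and medians of 2.17 and 2.38. CD14, an endotoxin co-receptor, rose by 2.62 ± 0.47 (adjusted p = 0.0192) and 2.91 ± 0.47 (adjusted p = 0.00633), and the leukocyte integrin subunit ITGB2 by 3.31 ± 0.60 (adjusted p = 0.0192) and 2.97 ± 0.59 (adjusted p = 0.0101). Its partner ITGAM rose by 3.22 ± 0.72 (adjusted p = 0.0347) and 2.85 ± 0.71 (adjusted p = 0.0271). The 14 genes summed to 252 to 610 CPM in controls, 156 to 477 at 2 weeks, 636 to 2861 at 4 weeks and 1399 to 2282 at 7 weeks. Their mean log2 CPM, used below as a macrophage score, was 3.29 to 4.48 in controls, 2.81 to 4.12 at 2 weeks, 4.56 to 6.67 at 4 weeks, where replicate 4 was lowest, and 5.75 to 6.35 at 7 weeks. CD68 ran from 7.92 to 23.8 CPM in controls and from 63.5 to 99.5 CPM at 7 weeks, and the transcription factor SPI1 from 2.81 to 8.76 and from 25.1 to 36.95 CPM.

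To set the 10 genes against these markers, the score was subtracted from each gene's log2 CPM in each library and the difference tested with limma, adjusted over all genes. At 7 weeks GPNMB was higher relative to the score by 1.25 ± 0.51 (adjusted p = 0.0215) and TREM2 by 1.14 ± 0.47 (adjusted p = 0.0221), where 0.232% of all genes were higher. TREM2 relative to the score was -0.75, -1.40, -1.64 and -0.61 in controls and -0.47, 0.55, 0.06 and 0.03 at 7 weeks. All 4 diet libraries lay above all 4 controls, the nearest values being -0.47 and -0.61. The share of all genes that separate in this way was not counted. GPNMB relative to the score was 0.05, 0.05, -0.41 and 0.88 in controls and 0.85, 0.75, 1.56 and 2.43 at 7 weeks, and the groups overlapped. TYROBP (0.87 ± 0.46, adjusted p = 0.0692), ATP6V0D2 (0.62 ± 0.58) and FABP5 (-0.48 ± 0.45) did not pass. LGALS3, LIPA, LPL, PLIN2 and SOAT1 were lower relative to the score, by -1.20 to -2.96, as were 91.9% of all genes, so that lower values are the background here. At 4 weeks TREM2 was higher by 0.97 ± 0.47 (adjusted p = 0.0485), where 0.175% of all genes were, and GPNMB read 0.83 ± 0.51 (adjusted p = 0.119); FABP5 and the 5 genes above were lower, as were 93% of all genes.

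The relative rises were close to the limit of these data. The error of the score is shared by all genes, and since most genes passed in these 2 comparisons the adjusted p hardly exceeds the unadjusted one. In data simulated for 7-week against control valve, genes left unchanged had a median log2 difference of 0.349 relative to the score. With a score from CD68, CD14 and SPI1 alone, TREM2 read 0.82 ± 0.48 at both times and GPNMB 0.93 ± 0.52 at 7 weeks, with adjusted p of 0.0832 to 0.0959. With the macrophage score as a covariate of the count model, the 7-week changes were 0.91 ± 0.56 in TREM2, 0.80 ± 0.51 in TYROBP, 1.41 ± 0.85 in GPNMB, 0.50 ± 0.85 in ATP6V0D2, 0.26 ± 0.38 in FABP5 and 0.09 ± 0.47 in LGALS3. None passed (adjusted p at least 0.980), and neither did any other gene tested. The score was 3.29 to 4.48 in controls and 5.75 to 6.35 at 7 weeks, so score and diet cannot be fully told apart in this fit.

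**Figure D3:**
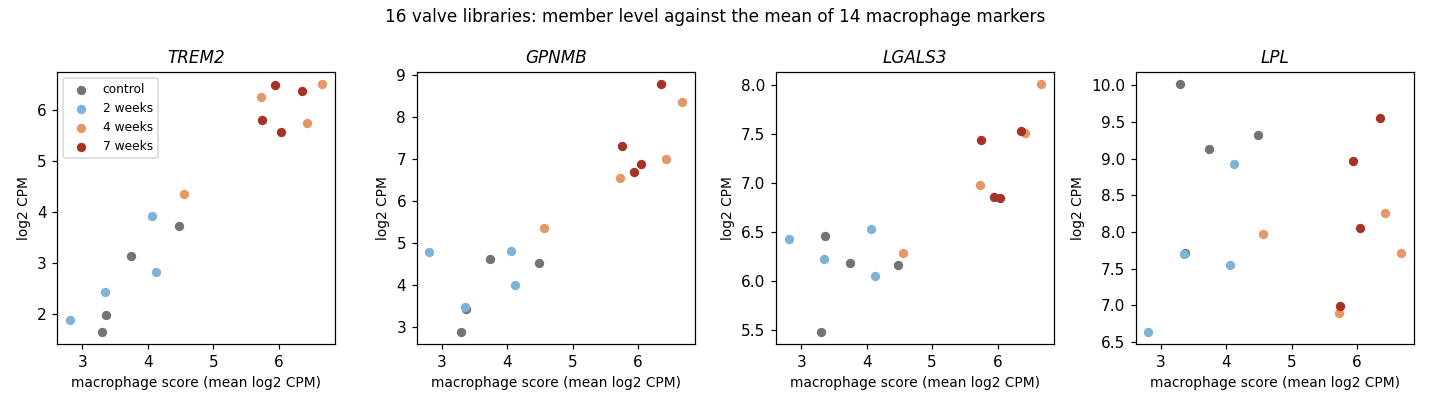
log2 CPM of TREM2, GPNMB, LGALS3 and LPL (vertical axes) against the mean log2 CPM of 14 macrophage markers (horizontal axis) in the 16 valve libraries, coloured by group. TREM2, GPNMB and LGALS3 are high where the score is high, 4-week replicate 4 (score 4.56) lies beside the controls, and LPL shows no such order.

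Other cell types moved with the same groups. All 4 atrial muscle genes tested rose at 7 weeks and 3 of 4 at 4 weeks, and NPPA, the atrial natriuretic peptide, went from 0.28 to 2.59 CPM in controls to 102 to 3335 at 4 weeks and 216 to 1984 at 7 weeks (9.57 ± 1.72 and 9.65 ± 1.72). SLN, which regulates the calcium pump of atrial muscle, rose by 7.95 ± 1.72 and 7.45 ± 1.70, and the atrial myosin light chain MYL4 by 7.47 ± 1.74 and 7.09 ± 1.72. With an atrial muscle score as covariate, chosen after seeing the data, the 7-week change was 2.90 ± 0.86 in TREM2 (adjusted p = 0.140), 3.06 ± 0.82 in TYROBP, 4.91 ± 0.85 in GPNMB (adjusted p = 0.0643), 4.81 ± 1.01 in ATP6V0D2, 1.49 ± 0.54 in FABP5 and 1.68 ± 0.46 in LGALS3. The 4-week changes were 2.74 ± 0.80, 2.49 ± 0.74, 4.30 ± 0.79 and 5.17 ± 0.89 in TREM2, TYROBP, GPNMB and ATP6V0D2. The sizes remained large while none of these calls stood, but no gene at all passed at 4 or 7 weeks in this fit. Diet and atrial RNA cannot be fully told apart. No cardiomyocyte gene of 12 passed at either time, the nearest being the myosin MYH7 at 4 weeks (-2.50 ± 0.85, adjusted p = 0.167; -0.17 ± 0.80 at 7 weeks) and PLN at 7 weeks (-1.36 ± 0.50, adjusted p = 0.10001). With the cardiomyocyte score as covariate TREM2 read 3.06 ± 0.61 at 4 weeks (adjusted p = 0.0886), TYROBP 2.44 ± 0.55, GPNMB 2.66 ± 0.71 and ATP6V0D2 2.43 ± 0.57. None of these passed, and neither did any other gene at 4 weeks in this fit, whereas the 6 genes that rose at 7 weeks kept their calls.

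Markers of further cell types stood apart as well, mostly at 7 weeks. Of 3 erythroid genes tested 2 rose at 7 weeks, the globin HBA by 1.62 ± 0.45 (adjusted p = 0.0396) and ALAS2, an enzyme of heme synthesis, by 1.66 ± 0.46 (adjusted p = 0.0384; 0.05 ± 0.45 at 4 weeks). The erythroid sum was 644 to 1872 CPM in controls, 697 to 2803 at 4 weeks and 2202 to 5711 CPM at 7 weeks. Of 7 mesothelial and epithelial genes 0 passed at 4 weeks, KRT19, a keratin, being nearest (2.94 ± 0.77, adjusted p = 0.0615), and 2 rose at 7 weeks, EPCAM, an epithelial adhesion protein, by 4.32 ± 0.88 (adjusted p = 0.0114) and KRT19 by 3.01 ± 0.77 (adjusted p = 0.0287). Their sum was 10.4 to 24.5 CPM in controls, 28.3 to 152 at 4 weeks and 48.8 to 178 at 7 weeks, so that neither later group overlapped the controls.

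Of the neutrophil markers tested 0 of 4 rose at 4 weeks, S100A9 reading 2.05 ± 0.71 (adjusted p = 0.178), and 3 of 4 at 7 weeks: the calcium-binding proteins S100A8 by 3.43 ± 0.93 and S100A9 by 2.63 ± 0.72 and the chemokine receptor CXCR2 by 2.11 ± 0.52. The 7 neutrophil genes summed to no more than 24.0 CPM in any valve library. Of 3 lymphocyte genes tested, the B cell receptor component CD79A read 2.03 ± 0.52 (adjusted p = 0.0590) at 4 weeks and rose by 2.75 ± 0.53 (adjusted p = 0.00880) at 7 weeks, and the 8 genes of that list summed to 4.10 to 7.05 CPM in controls and 8.34 to 13.2 CPM at 7 weeks. Of 8 endothelial genes VWF, the von Willebrand factor, rose at 7 weeks by 1.34 ± 0.37 (adjusted p = 0.0396), and the nearest at 4 weeks was KDR (-0.75 ± 0.30, adjusted p = 0.271). Smooth muscle genes fell in 4 of 6 at 7 weeks, among them CNN1 (-1.46 ± 0.35), MYH11 (-1.40 ± 0.37) and ACTA2 (-1.14 ± 0.32), contractile genes, with CNN1 at -0.60 ± 0.35 at 4 weeks; their sum was 19066 to 33801 CPM in controls and 8567 to 14257 CPM at 7 weeks. None of 8 fibroblast genes passed, COL1A1 being nearest at 4 weeks (1.302 ± 0.37, adjusted p = 0.0856) and LUM at 7 weeks (0.98 ± 0.30, adjusted p = 0.0559). The part of these cell types in the changes of the 10 genes was not tested. The 4 libraries of the 7-week group carry the library numbers 1 to 4 and all other libraries 18 to 38. The other valve groups also ran largely in blocks, 27 to 30 at 2 weeks, 31 to 34 in controls, and 21 and 36 to 38 at 4 weeks. Some of these numbers recur in aorta and myocardium. Whether the blocks were separate runs is not given, and if so run and group cannot be told apart.

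The genes also varied together between libraries of the same group. After the group means were removed, TREM2 and TYROBP had a correlation of 0.90 over the 16 valve libraries, GPNMB and LGALS3 0.82, ATP6V0D2 and LGALS3 0.77, and GPNMB and ATP6V0D2 0.75. PLIN2 and LIPA had 0.70. TREM2 stood at 0.03 with PLIN2 and -0.08 with SOAT1. With the macrophage score, TYROBP had 0.85, TREM2 0.83 and FABP5 0.81, and PLIN2 0.31 and SOAT1 0.08. LPL had 0.59 with the cardiomyocyte score, against -0.73 for ATP6V0D2 and -0.67 for SOAT1. These correlations are descriptions over libraries that share depth and tissue make-up.

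**Figure D4:**
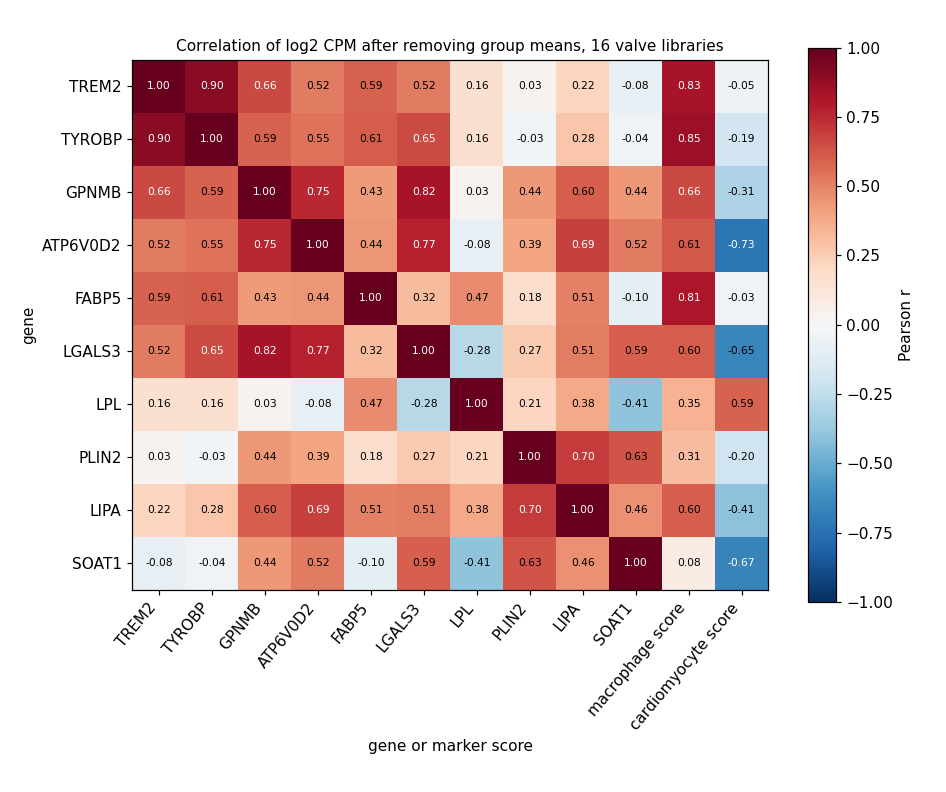
Pearson correlation of log2 CPM over 16 valve libraries after removing group means, for each pair of the 10 genes and for each gene with the macrophage and cardiomyocyte scores (colour scale from -1 to 1, values printed in the cells). TREM2 and TYROBP form the closest pair (0.90), GPNMB, ATP6V0D2 and LGALS3 a second set (0.75 to 0.82), and PLIN2, LIPA and SOAT1 correlate with each other at 0.46 to 0.70.

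Over all genes with a symbol and a mean of at least 1 CPM, those most like TREM2 by the same measure were CORO1A, an actin-binding protein of leukocytes (0.95), CD14 (0.95) and BCL2A1, a survival protein of blood cells (0.93). Those most like TYROBP were FCER1G, an adaptor of Fc receptors (0.98), CD37, a leukocyte tetraspanin (0.97), and SPI1 (0.97). GPNMB was closest to MCUB, a mitochondrial calcium channel subunit (0.91), GMIP (0.90) and SMPD1, the lysosomal acid sphingomyelinase (0.89). MCUB was also among the 3 closest to ATP6V0D2 (0.88) and LGALS3 (0.91), beside OSTF1 (0.89) and GLIPR1 (0.86) for the former and ARPC3 (0.92) and the lysosomal protease CTSB (0.91) for the latter. FABP5 was closest to GIMAP4 (0.94), LYSMD2 (0.93) and TFEC (0.91). The 3 closest were PKIA, TMEM170B and TTLL7 for LPL (0.86 to 0.87), SMAP2, KLF11 and COL4A1 for PLIN2 (0.86 to 0.90), TENT2, ABTB3 and DOCK11 for LIPA (0.86 to 0.87) and NDEL1, FKBP15 and MNT for SOAT1 (each 0.87). Without the group means removed, these correlations were 0.985 to 0.990 for the 3 genes of TREM2, 0.985 to 0.993 for TYROBP, 0.75 to 0.95 for GPNMB, 0.73 to 0.92 for ATP6V0D2, 0.40 to 0.92 for FABP5, 0.95 to 0.96 for LGALS3, 0.82 to 0.90 for LPL, 0.40 to 0.88 for PLIN2, 0.76 to 0.87 for LIPA and 0.51 to 0.83 for SOAT1.

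In ascending aorta none of the 9 genes tested changed (2 diet against 3 control libraries), where 0.159% of all 14435 genes did. The diet aortas stood apart by heart muscle RNA: beside the atrial sum given above, the cardiomyocyte sum was 470 to 660 CPM in controls and 1272 to 1280 CPM on diet, and MYH6, ACTC1, MYL4, MYL7 and SLN, all genes of heart muscle, were 5 of the 23 genes called. Endothelial genes summed to 110 to 307 CPM in controls and 96.8 to 97.6 CPM on diet, macrophage genes to 144 to 162 and 115 to 122 CPM, and Schwann cell and melanocyte genes to 32.3 to 99.1 and 23.8 to 28.3 CPM. The part of these in the values below was not tested. TREM2 read 4.26, 2.17 and 4.13 CPM in controls and 3.01 and 2.42 CPM on diet, a difference of -0.32 ± 0.38 (95% interval -1.07 to 0.42). TYROBP read 5.99, 3.91 and 7.54 CPM against 4.16 and 4.20 CPM (-0.43 ± 0.33). The 2-week valve, which shares an animal with diet aorta replicate 1, had not changed in TREM2 either (0.12 ± 0.53), and tissue and diet duration cannot be told apart in setting aorta against 4- and 7-week valve. GPNMB, FABP5 and LPL were lower in both diet libraries than in all 3 controls, which held for 20.5% of all genes. GPNMB read 7.99, 9.75 and 12.2 against 6.78 and 6.18 CPM (-0.58 ± 0.24, adjusted p = 0.411), FABP5 9.92, 7.39 and 6.88 against 4.34 and 4.14 CPM (-0.87 ± 0.23, adjusted p = 0.260) and LPL 53.8, 29.6 and 22.4 against 13.4 and 14.1 CPM (-1.31 ± 0.37, adjusted p = 0.281). The 5 adipocyte genes summed to 54.1 to 286 CPM in control and 48.8 to 50.5 CPM in diet aortas, and their part in the LPL values was not tested. Relative to the macrophage score LPL was lower by -1.18 ± 0.33 (limma, adjusted p = 0.0201), as were 0.942% of all genes. LIPA, PLIN2, SOAT1 and LGALS3 differed by -0.19 to 0.18, and ATP6V0D2 was at 0.78 CPM or less. The macrophage score was 2.22 to 2.75 in control and 2.33 to 2.47 in diet aortas.

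In myocardium GPNMB came closest to a change. Its 3 controls read 0.14, 0.27 and 0.06 CPM, or 2, 4 and 1 counts, and its 3 diet libraries 3.06, 3.67 and 8.28 CPM, or 53, 52 and 133 counts, all above the controls. The fitted difference, which rests on these few control counts, was 5.05 ± 0.65 (adjusted p = 0.0544). None of the 9 genes tested passed, where 0.0848% of all 14151 genes did. TREM2 read 0.36, 1.95 and 0.76 CPM in controls and 2.08, 2.19 and 3.92 CPM on diet, also without overlap (1.52 ± 0.61, adjusted p = 0.509); diet libraries lay above all controls for 3.74% of all genes. PLIN2 read 20.1, 35.2 and 28.03 CPM in controls and 88.2, 96.7 and 29.5 CPM on diet, 2 libraries high and 1 within the control range (1.502 ± 0.45, adjusted p = 0.314). DESeq2, the other count test run, called GPNMB (5.14 ± 0.76, adjusted p = 1.04e-08) and PLIN2 (1.51 ± 0.42, adjusted p = 0.0255), and edgeR without the filter on low counts called GPNMB (adjusted p = 0.00644). Relative to the macrophage score, which was 1.65 to 2.94 in controls and 3.17 to 3.51 on diet, GPNMB was higher by 3.35 ± 0.71 (limma, adjusted p = 0.000312), where 0.261% of all genes were. PMEL was at 0 in all 3 diet libraries and at 0, 0.07 and 0 CPM in controls, and MLANA read 0, 0.27 and 0.12 CPM in controls and 0.23, 0.14 and 0.56 CPM on diet. The Schwann cell and melanocyte list summed to 19.7 to 66.3 CPM in controls and 19.7 to 42.6 CPM on diet, and the part of these cells was not tested. Beside the atrial sum, the groups did not overlap in the smooth muscle sum, 2191 to 2405 CPM in controls and 2818 to 3251 on diet, or the fibroblast sum, 2218 to 3161 and 1277 to 2061 CPM, and the part of these was not tested.

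**Figure D5:**
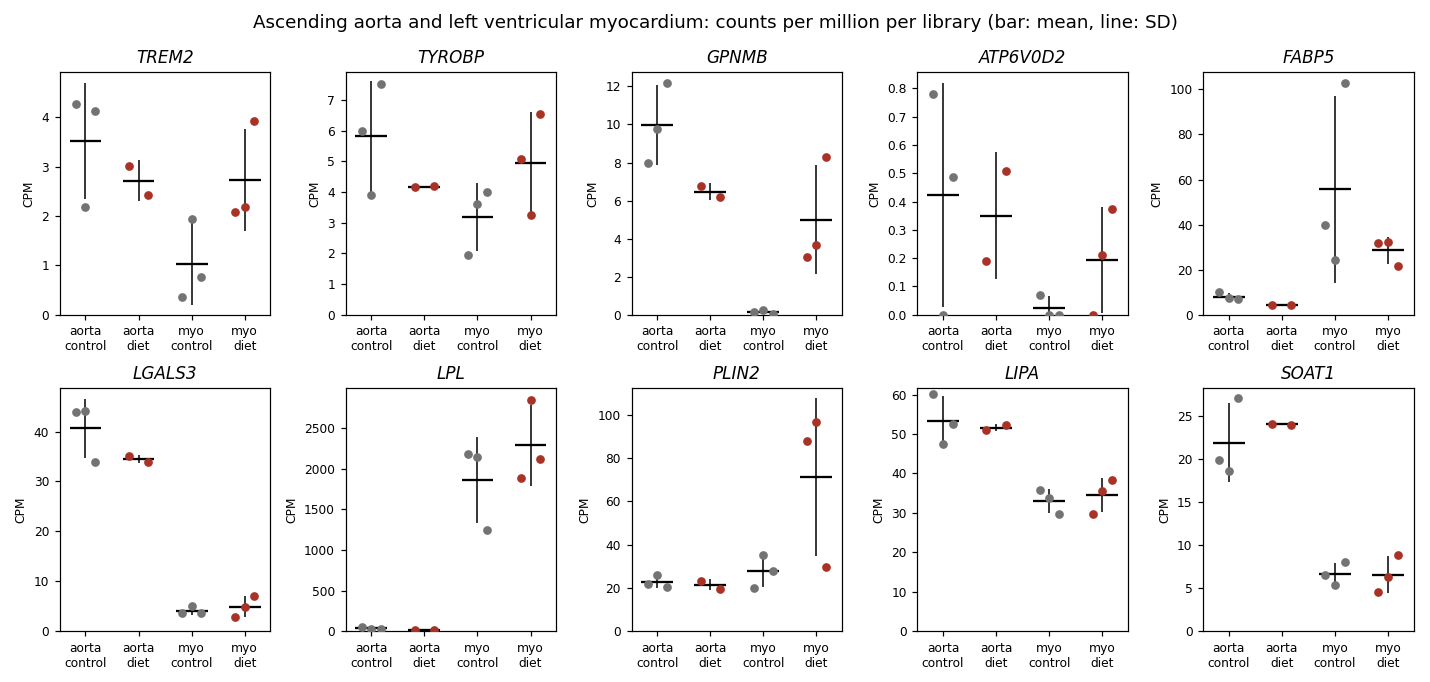
Level of each gene in CPM (vertical axis, linear, from 0) in control and diet libraries of ascending aorta (n = 3 and 2) and left ventricular myocardium (n = 3 and 3); points are libraries, bars means and lines SD. GPNMB is near 0 in control myocardium and at 3.06 to 8.28 CPM on diet, while in aorta both diet libraries lie below the 3 controls for GPNMB, FABP5 and LPL.

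The other genes overlapped between myocardium groups. TYROBP read 1.93, 3.63 and 4.00 CPM in controls and 5.08, 3.25 and 6.54 CPM on diet (0.79 ± 0.39). LPL, abundant in heart muscle, read 2182, 2146 and 1247 CPM against 1892, 2854 and 2120 CPM (0.39 ± 0.34). FABP5 read 39.96, 24.5 and 103 CPM against 31.9, 32.5 and 21.8 CPM (-0.76 ± 0.44), 1 control standing high. LGALS3, LIPA and SOAT1 differed by 0.37 ± 0.36, 0.17 ± 0.19 and 0.10 ± 0.27, and ATP6V0D2 was at 0.37 CPM or less.

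Whether the diet effect differed by tissue was tested directly in joint fits. The diet effect in 7-week valve minus that in myocardium passed for 0 of 10 genes, where 0.423% of all genes passed in either direction; FABP5 came nearest at 2.52 ± 0.54 (adjusted p = 0.0580), then TYROBP at 2.36 ± 0.57 (adjusted p = 0.0826) and TREM2 at 1.74 ± 0.79 (adjusted p = 0.350), while GPNMB read -1.43 ± 1.12. FABP5 passed without control myocardium replicate 2 (2.85, adjusted p = 0.0318), and with the animal as a random block in limma voom FABP5 (2.41 ± 0.47, adjusted p = 0.0290) and TYROBP (2.58 ± 0.60, adjusted p = 0.0490) passed. The mean diet effect over the 3 valve durations minus that in aorta passed for 0 of 10, where 0.0474% of all genes passed. It averages durations that the aorta libraries may not share, and was 2.42 ± 0.84 in TREM2, 2.29 ± 0.75 in TYROBP, 2.91 ± 0.92 in GPNMB and 1.61 ± 0.51 in FABP5, with adjusted p of 0.439 to 0.454.

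Without diet, the share of the 10 genes that differed between tissues was near that of all genes in the 2 comparisons with aorta and above it in valve against myocardium. Control valve against control aorta had 1 of 10 higher and 1 lower, where 22.2% of all genes differed: LPL was higher by 3.95 ± 0.58 (adjusted p = 0.00204), 221 to 943 CPM against 22.4 to 53.8 CPM, and SOAT1 lower by -0.58 ± 0.18 (adjusted p = 0.0446). The cardiomyocyte sum, at 8154 to 39930 CPM in control valve and 470 to 660 CPM in control aorta, and the macrophage score, at 3.29 to 4.48 and 2.22 to 2.75, differed in the same direction as LPL, and their part was not tested. SOAT1 failed without valve control replicate 1, 3 or 4 or any aorta control (-0.39 to -0.68, adjusted p = 0.0624 to 0.170), FABP5 passed without valve control replicate 2 (1.55, adjusted p = 0.0334), and TYROBP (1.23, 0.0347) and LGALS3 (0.77, 0.0232) passed without valve control replicate 3. Against control myocardium, where 46% of all genes differed, control valve had 6 of 10 higher and 2 lower. GPNMB was higher by 6.23 ± 0.65, ATP6V0D2 by 4.51 ± 1.39, LGALS3 by 3.65 ± 0.27, TREM2 by 2.36 ± 0.67, TYROBP by 1.61 ± 0.40 and SOAT1 by 0.91 ± 0.19. LPL was lower by -2.06 ± 0.49 and FABP5 by -1.64 ± 0.41. TREM2 failed without myocardium control replicate 1 (1.93, adjusted p = 0.0595), and ATP6V0D2 without replicate 2 (4.05, 0.0780) or 3 (3.92, 0.0693), since it is at 0 in 2 of those 3 libraries and its fold is no more than a fitted value. Control aorta against control myocardium, where 52.8% of all genes differed, had GPNMB (5.71 ± 0.66), LGALS3 (3.07 ± 0.28) and SOAT1 (1.48 ± 0.20) higher and LPL (-6.00 ± 0.65) and FABP5 (-2.98 ± 0.48) lower, with adjusted p of 0.000424 or less. There ATP6V0D2 passed without aorta control replicate 2 (4.15, adjusted p = 0.0187), PLIN2 without myocardium control replicate 1 (-0.75, 0.0358) and TREM2 without myocardium control replicate 2 (2.37, 0.0253).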

How the data were processed

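RNA of valve cusps, ascending aorta and left ventricular myocardium was sequenced (27 libraries). The values are RSEM expected counts per gene, deposited by the authors in 3 full tables; a valve table reduced by genes that they classed as myocardial served as an alternative. RSEM 1.3.3 was used with STAR 2.7.8a, per the submitters' processing notes, which also list edgeR 3.42.4, Trim Galore 0.6.6 and FastQC 0.11.9. The labels' protocols name a directional library kit; genome build and strand setting of the counting: not given in the sources used here. In the RefSeq gene table (assembly mOryCun1.1), ATP6V0D2, LPL and LIPA each overlap another gene; their values were not whole, a sign of shared reads, in 0%, 3.70% and 0% of libraries. Sequences and coordinates are not used here.

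Expected counts were rounded. Genes were filtered with filterByExpr (at least 10 counts, total at least 15) and compared with the two-sided quasi-likelihood F test of edgeR 4.0.16 under R 4.3.3, on TMM-scaled libraries, at a Benjamini-Hochberg adjusted p of 0.05 over all genes tested. The SE from edgeR is the absolute log2 fold change divided by the square root of F. The 95% intervals use this SE and the normal distribution, so with few libraries they are too narrow. The 16 valve libraries shared 1 fit. Aorta and myocardium had their own, and differences between tissues used joint fits. Tests relative to the macrophage score used limma 3.58.1 on log2 CPM with a prior count of 2. Groups came from the labels, which do not give the origin of every replicate beyond animal numbers; 6 of 21 animals gave 2 tissues, which only the fits with an animal block modelled. The 10 genes and all lists were chosen with earlier results of these data known. Of 250 different listed genes 31 were absent by symbol, 8 of them present under a LOC number and not used. Named genes are all 10 genes, and from each list the 3 largest changes past the threshold at 4 and at 7 weeks, or the smallest adjusted p where none passed. Beyond this rule a few were named after their values were seen.

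Alternatives were RLE scaling, no filter, DESeq2 1.42.0, a replicate or animal block, the reduced valve table, fits of 2 groups alone, scores as covariates, another macrophage score and leaving out each library. Simulated data for 7-week against control valve (15973 genes) had 44%, 78% and 96% of genes changed 2-, 4- and 8-fold called, 69.4% of those at 0.25-fold, and 7 false calls. Relative to the macrophage score, the genes left unchanged had a median log2 difference of 0.349 in these data.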

Additional observations from a re-analysis of the deposited data

Results flagged for a closer look

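SOAT1 read 11.2 CPM in 7-week valve replicate 2, against 22.7 to 24.8 CPM in the other 3 libraries of that group, a gap of 0.849 of the group's range. This was the only such library among 40 sets of valve values (10 genes in 4 groups), and chance gives about 1 in 20. It is also the shallowest library, with 8.458 M counts.

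The diet effect differed between durations in the valve, by the direct test of 1 duration against another, for 5 genes from 2 to 4 weeks: TREM2 by 2.96, TYROBP by 2.52, GPNMB by 2.84, ATP6V0D2 by 4.25 and FABP5 by 1.52. From 2 to 7 weeks it differed for 6: TREM2 by 3.15, TYROBP by 3.11, GPNMB by 3.32, ATP6V0D2 by 3.52, FABP5 by 2.22 and LGALS3 by 0.89. Both sets of differences share the 2-week libraries.

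In aorta GPNMB was lower on diet in every library (-0.58) while it was higher in every 4- and 7-week valve, and FABP5 was lower in aorta (-0.87) while higher in every 7-week valve. Lower values in both diet aortas held for 20.5% of all genes. Diet aorta replicate 1 comes from the animal of 2-week valve replicate 1, and the 2-week valve read 0.34 ± 0.60 in GPNMB and -0.47 ± 0.34 in FABP5, neither passing, so tissue and duration cannot be told apart. These opposite directions were not tested at those durations. Against the mean of the 3 valve durations the difference was 2.91 ± 0.92 in GPNMB and 1.61 ± 0.51 in FABP5, with an adjusted p of 0.439 in edgeR for each.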

How the results depend on the processing

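Counts over all genes, in the order of valve at 2, 4 and 7 weeks against control and then 4 against 2, 7 against 4 and 7 against 2 weeks, were 4, 319, 1245, 697, 16 and 4261. DESeq2 gave 950, 764, 2221, 1495 and 199 for the first 5. A replicate block gave 0, 5, 663, 264 and 10 for these, fits of 2 groups alone 431, 2, 897, 196 and 2, and the cardiomyocyte score as covariate 0, 0, 1555 and 452 for the first 4 and 718 for 7 against 2 weeks. The macrophage score as covariate gave 7, 0, 0 and 0 for the first 4 and 0 for 7 against 2 weeks, and the atrial score, chosen after seeing the data, 939, 0 and 0 for the first 3. At these counts of 0 in edgeR, the genes with an unadjusted p under 0.05 numbered 2131 for the replicate block at 2 weeks, 712 and 1717 for the cardiomyocyte score, 564, 687, 726 and 1644 for the macrophage score and 2342 and 2349 for the atrial score. Replicate numbers did not pair the libraries: of 24 pairs of valve libraries with the same number in different groups 2 had a correlation of deviations over 0.1, against 22 of 72 with other numbers. With the replicate block TREM2, TYROBP, GPNMB and ATP6V0D2 had adjusted p of 0.0633 to 0.0786 at 4 weeks, LGALS3 0.108 at 7 weeks and 0.0742 from 2 to 7 weeks, and FABP5 0.0511 from 2 to 4 weeks; the block ended no other call of the 10 genes. Aorta gave 23 genes, 390 with DESeq2 and 96 with the block, and LPL there passed with DESeq2 (-1.30, adjusted p = 0.0223). Myocardium gave 12 genes, 302 with DESeq2 and 76 without the filter. The effect in 7-week valve minus myocardium gave 68 genes, and 229 with the animal as a block; that block could not be fitted for valve and aorta, which share 1 animal. Genes higher relative to the macrophage score were 4 at 2 weeks and 37 at 7 weeks, and 8 and 22 with the score from 3 genes.

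Leaving out 1 library gave, over all genes, 0 to 515 at 2 weeks, 0 to 791 at 4 weeks and 445 to 2261 at 7 weeks, 207 to 1225 for 4 against 2 weeks, 4 to 49 for 7 against 4 and 2626 to 5608 for 7 against 2. It gave 2 to 284 in aorta, 1 to 36 in myocardium, 5 to 142 for valve minus myocardium, 0 to 9 for valve minus aorta (main value 8) and 1795 to 3356 for control valve against aorta (main value 3397).

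With the cardiomyocyte score the sign turned at 2 weeks in TYROBP (-0.17), GPNMB (-0.42), LPL (0.035), LIPA (-0.33) and LGALS3 (-0.49), from 4 to 7 weeks in ATP6V0D2 (0.57), LIPA (0.035), SOAT1 (0.079) and LGALS3 (0.29), from 2 to 4 weeks in SOAT1 (0.20), and from 2 to 7 weeks in LPL (-0.58) and SOAT1 (0.28). With the macrophage score it turned at 4 weeks in FABP5 (-0.39), PLIN2 (-0.082) and LIPA (-0.42), at 7 weeks in LIPA (-0.66), from 2 to 4 weeks in TYROBP (-0.0016), LIPA (-0.57) and LGALS3 (-0.099), and from 2 to 7 weeks in LPL (-0.15), LIPA (-0.80) and LGALS3 (-0.20). With the atrial score it turned at 2 weeks in TREM2 (-0.039), ATP6V0D2 (0.14) and PLIN2 (0.029). SOAT1 from 2 to 4 weeks read 0.0090 without the filter, 0.0027 with the block and 0.0025 in the reduced table. LIPA in control valve against aorta read -0.036 with the animal block, and PLIN2 relative to the 3-gene score -0.082 at 2 weeks. The cause of these turns was not tested. Without the filter LGALS3 missed the threshold at 7 weeks (1.08, adjusted p = 0.0517) and from 2 to 7 weeks (0.88, 0.0547). DESeq2 called LGALS3 at 4 weeks (1.22, adjusted p = 0.00508) and from 2 to 4 weeks (1.01, 0.0231), and PLIN2 from 2 to 7 weeks (0.60, 0.0426). With 2 groups alone TYROBP, GPNMB and FABP5 missed the threshold from 2 to 4 weeks (adjusted p = 0.0539, 0.0559 and 0.0724). With the cardiomyocyte score LGALS3 passed there (1.34, adjusted p = 0.0155), and in the reduced table PLIN2 passed from 2 to 7 weeks (0.62, 0.0481). FABP5 passed in control valve against aorta with RLE scaling (1.34, adjusted p = 0.0470) and without the filter (1.37, 0.0373), and SOAT1 failed there with either and with the animal block.

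With 1 library left out, the sign turned in at least 1 fit for these results, none of which had passed. At 2 weeks the ranges were -0.44 to 0.57 in TREM2, -0.35 to 0.28 in TYROBP and -0.023 to 0.17 in LIPA. From 2 to 4 weeks they were -0.39 to 0.42 in LPL and -0.098 to 0.058 in SOAT1, and from 2 to 7 weeks -0.18 to 0.067 in SOAT1. From 4 to 7 weeks they were -0.0996 to 0.46 in TREM2, -0.22 to 1.23 in GPNMB, -1.04 to 0.33 in ATP6V0D2, -0.42 to 0.12 in LIPA, -0.18 to 0.078 in SOAT1 and -0.35 to 0.20 in LGALS3. In aorta they were -0.16 to 0.086 in PLIN2 and -0.091 to 0.088 in LIPA, and in myocardium -0.15 to 0.25 in SOAT1. For valve minus myocardium they were -1.93 to 0.997 in ATP6V0D2 and -0.12 to 0.26 in LIPA, and for valve minus aorta -0.27 to 0.52 in LPL and -0.045 to 0.25 in SOAT1. In controls they were -0.068 to 0.11 in LIPA for valve against aorta and -0.32 to 0.091 in PLIN2 for valve against myocardium. ATP6V0D2 had few counts outside the later valves and was at 0 in 1 aorta and 3 myocardium libraries.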
